A study of Rattus norvegicus with 10 samples.

Results

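Fermt1 and Adamts2 nuclei are a small set of excitatory neuron nuclei from the rat dentate gyrus, and 961 of the 55401 nuclei that passed the limits on depth and mitochondrial RNA belonged to it. Nuclei were kept at 500 or more unique molecular identifiers (UMIs, each counting 1 captured RNA molecule) and at most 5% mitochondrial UMIs, which left out 444 and 18 of the 55863 nuclei in the matrices. A member had 3 or more UMIs summed over Fermt1, Adamts2, Trpc7 and Chst8 (F), more of these than of Neurod6, Rspo2, Vgll3 and Lpl together (E), at least 1 UMI of Slc17a7, and at most 1 UMI of Gad1 plus Gad2. The values of these genes chose the members and are given as a description, with no test. The same limits with E and F exchanged gave 908 Neurod6 and Rspo2 nuclei, the excitatory set used here for comparison.

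The nuclei came from the ipsilateral dentate gyrus of 4 male Sprague-Dawley rats, 1 library per rat, all with the same batch label. TBI rats 1 and 2 received a lateral fluid percussion injury through a craniectomy made some days earlier, and the tissue was taken 3 weeks after injury. The sham rat had the same surgery without the fluid pulse, and the naïve rat had no surgery. Sham and naïve formed 1 control group of 2 rats, so an effect of the craniectomy and an effect of the pulse cannot be told apart. A further 3 sham and 3 TBI rats of that strain and sex gave bulk RNA-seq libraries of the same tissue.

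Excitatory neurons of the dentate region use glutamate, which VGLUT1, the product of Slc17a7, loads into synaptic vesicles. Granule neurons and the mossy cells of the hilus are its known excitatory types, and a dissection can carry neurons from the adjoining CA fields. Fermt1 encodes kindlin-1, which activates integrins, and Adamts2 encodes a protease that trims procollagens. Trpc7 is a cation channel opened by diacylglycerol, and Chst8 is a sulfotransferase that acts on N-acetylgalactosamine in glycan chains.

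The libraries differed in depth and in how zeros were stored. The kept nuclei held a median of 2279 UMIs in TBI rat 1, 1640 in TBI rat 2, 1897 in sham and 2653 in naïve. Of the matrix entries, 1.63% in TBI rat 1 were written as 0, against 27.4% in TBI rat 2, 11.1% in sham and 15.5% in naïve. Shares of members are also given below for nuclei thinned to 2000 UMIs. The part of depth in the other results, and of the stored zeros in any of them, was not tested. Between pairs of libraries 321 cell barcodes were shared in all, and 0 of them belonged to members in both. Over 12195 genes, log2 levels of the summed members correlated between rats at a Pearson's r of 0.938 to 0.971, which is a description across genes, and lowest between TBI rat 2 and the naïve rat.

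Members were deeper than the average nucleus in every rat, which the rule favours because it sets minimum counts of UMIs. They held a median of 3911.5 UMIs in TBI rat 1, 3120 in TBI rat 2, 3364.5 in sham and 4890.5 in naïve, and their sums came to 1359449, 629987, 945464 and 1506565 UMIs. Neurod6 and Rspo2 nuclei, chosen under the same minimum counts, were deeper still, with medians from 3762.5 to 5417 UMIs. Of the nuclei with F of 3 or more and few Gad UMIs, 133 were set aside because F did not exceed E and 299 because they had no Slc17a7 UMI. A further 38 met all other limits but had more than 1 Gad UMI. The threshold cuts through a continuous range, since 225 members had an F of exactly 3 and 335 nuclei that met all other limits had an F of exactly 2. The highest F was 26, and the median over members was 5.

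Most members carried more than 1 gene of the rule. UMIs of at least 2 of the 4 F genes were found in 90.8% of members, 360 members (37.5%) had both Fermt1 and Adamts2, and 155 (16.1%) had neither and entered through Trpc7 and Chst8. Chst8 was detected in 79.6% of members, Trpc7 in 68.4%, Adamts2 in 68.1% and Fermt1 in 53.3%, at a median of 3794 UMIs a nucleus. For the background of free RNA, the same genes were detected in 3.52%, 0.766%, 0.843% and 0.690% of 1305 oligodendrocyte-marker nuclei without Slc17a7, which were shallower, with a median of 1091 UMIs.

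Summed per rat and scaled to 1000000 UMIs in total (CPM), Fermt1 stood at 294 in TBI rat 1, 270 in TBI rat 2, 300.4 in sham and 325 in naïve. In Neurod6 and Rspo2 nuclei of the same rats it stood between 18.6 and 27.2 CPM. Adamts2 stood at 457, 390.5, 324 and 335 CPM in the same order of rats, and at 10.6 to 17.7 CPM in Neurod6 and Rspo2 nuclei. These 2 genes separated the classes most, as the plot of the genes of the rule shows. Trpc7 ran from 257 to 352 CPM in members and from 26.2 to 52.4 CPM in Neurod6 and Rspo2 nuclei. Chst8 was less selective, at 251 to 511 CPM against 69.0 to 153 CPM.

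**Figure D1:**
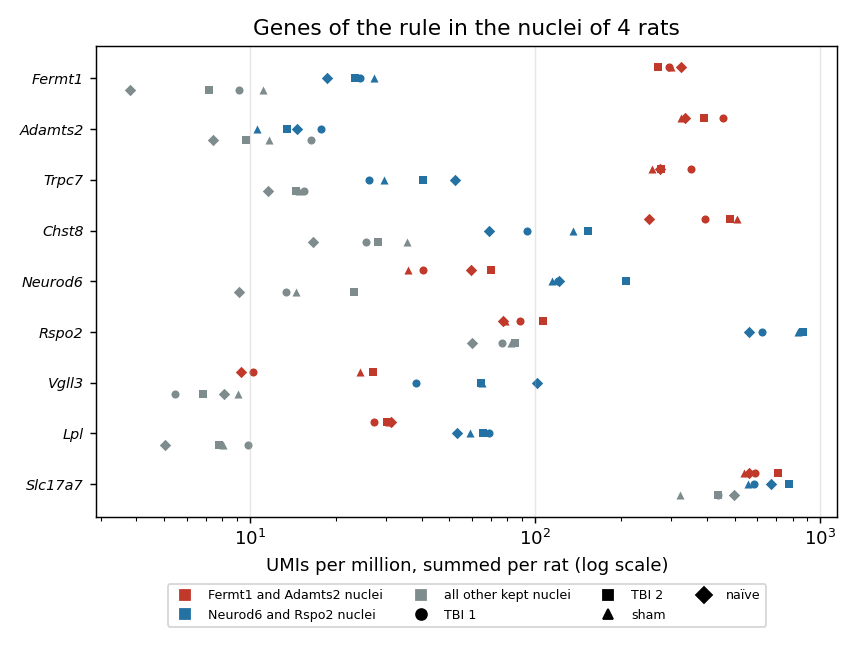
Summed CPM (log axis) of the genes of the rule in Fermt1 and Adamts2 nuclei (red), Neurod6 and Rspo2 nuclei (blue) and all other kept nuclei (grey), with 1 point per rat and a marker shape for each rat. Fermt1 and Adamts2 lie above 250 in the red points and under 30 elsewhere, while Slc17a7 overlaps between red and blue.

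Genes of the opposing sum were low but present. Rspo2, a secreted activator of Wnt signalling, stood at 77.0 to 106 CPM in members and at 560 to 872 CPM in Neurod6 and Rspo2 nuclei, while the other kept nuclei held 59.9 to 85.3 CPM. Neurod6, a neuronal transcription factor, was at 36.0 to 69.8 CPM in members. In 479 members no UMI of the 4 E genes was found. Slc17a7 itself stood at 588, 710, 539 and 562 CPM in TBI rat 1, TBI rat 2, sham and naïve, and at 557 to 773 CPM in Neurod6 and Rspo2 nuclei.

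Markers of other cell types were set beside the label of an excitatory neuron. Camk2a, the kinase subunit typical of excitatory neurons, ran from 918 to 1310 CPM in members, and was lower in all 4 rats than in Neurod6 and Rspo2 nuclei, with a mean of 1205 CPM in all other kept nuclei. Slc17a6, which encodes VGLUT2, was low but higher than in Neurod6 and Rspo2 nuclei in every rat, at 11.03, 25.4, 16.9 and 23.9 CPM against 0 to 4.64 CPM. The rule capped Gad1 and Gad2, and the 5 other GABAergic markers together came to 134, 23.8, 111 and 87.0 CPM in TBI rat 1, TBI rat 2, sham and naïve, against 26.0 to 137 CPM in Neurod6 and Rspo2 nuclei and 372 to 522 CPM in all other nuclei, with Slc32a1, the vesicular GABA transporter, at 0 UMIs in all members.

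The lists of dentate, hippocampal and cortical neuron markers were read next. Prox1, the transcription factor that defines granule neurons, was at a mean of 72.3 CPM in members and 286 CPM in the other nuclei. Of 8 mossy cell markers, Csf2rb and Glipr1 were at 0 UMIs in all 4 rats and 7 were under 10 CPM on average, Drd2 and Calb2 among them. The exception was Ajap1, an adherens junction protein, at 164, 154, 111 and 115 CPM against 54.4 to 106 CPM in Neurod6 and Rspo2 nuclei. Of 6 CA3 markers, Cpne4 and Grik4 were abundant, with means of 1556 and 810.2 CPM, but lower in all 4 rats than in Neurod6 and Rspo2 nuclei. The CA3 list summed to 2057 to 3041 CPM in members, to 2840 to 5047 CPM in Neurod6 and Rspo2 nuclei and to 832 to 1323 CPM in all other nuclei, and 3 of its 6 markers were under 10 CPM on average in members. The 4 CA1 markers in the table summed to no more than 57.1 CPM, and the 4 subiculum markers to no more than 27.2 CPM. Of 4 deep cortical layer markers in the table, Tle4, a transcriptional corepressor, was the most abundant in members, at a mean of 233 CPM, and 2 were under 10 CPM on average. This list summed to 303 to 358 CPM in members, 212 to 334 CPM in Neurod6 and Rspo2 nuclei and 411 to 507 CPM in all other nuclei. The members are called here by the genes that chose them.

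Glial markers were present and unevenly spread over rats. The 6 astrocyte markers summed to 259 CPM in TBI rat 1, 375 in TBI rat 2, 203 in sham and 1531 in naïve, with Gfap the most abundant and none at 0. The same list summed to 268, 113, 135 and 724 CPM in Neurod6 and Rspo2 nuclei, and to 553, 663, 613 and 838 CPM in all other nuclei. In the naïve rat, 98.2% of the members' astrocyte-marker UMIs lay in 23 members with 5 or more of them, and over all rats 47 such members (4.89%) had a median of 12241 UMIs. Doublets were not removed, and their part in these nuclei was not tested. The 6 oligodendrocyte markers summed to 173 to 282 CPM in members, led by Mbp. The 6 microglia markers summed to 20.6 to 51.1 CPM, led by Ctss on the mean of the 4 rats.

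Outside the rule, 20 genes stood out most from the other kept nuclei. They were taken by the lowest of the 4 rats' ratios of CPM in members to CPM in all other nuclei, among 3187 genes at 50 CPM or more in members of every rat. Those lowest ratios ran from 4.74 to 8.21. Of the 20 genes, 18 were also above Neurod6 and Rspo2 nuclei in all 4 rats, and AABR07049085.1 and Cpm were each above in 3 rats. Of all 4038 genes outside the rule at a mean of 50 CPM or more in either class, 27.1% were above in all 4 rats. The 20 were chosen for high levels in these same members, so their count is a description.

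Among the leading genes, Gna14, a G protein alpha subunit of the Gq family, stood at 202, 168, 179 and 212 CPM in TBI rat 1, TBI rat 2, sham and naïve, against 38.3 to 50.2 CPM in Neurod6 and Rspo2 nuclei. Plch2, a phospholipase C, stood at 84.1 to 151 CPM against 27.9 to 43.0 CPM. The orexin receptor gene Hcrtr2 stood at 73.6, 106, 85.7 and 123 CPM, and at 61.7, 104, 68.5 and 53.7 CPM in Neurod6 and Rspo2 nuclei, so that in TBI rat 2 the classes were nearly level. Daam2, a formin that acts in Wnt signalling, stood at 190.5 to 292 CPM against 63.0 to 130 CPM. Sorcs2, a receptor of the VPS10 family, stood at 338 to 452 CPM against 99.5 to 153 CPM.

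Ndst4, another of the 20 and an enzyme that sulfates heparan chains, stood at 108, 256, 274 and 185 CPM against 7.47, 26.0, 24.8 and 9.95 CPM in Neurod6 and Rspo2 nuclei, a ratio of 9.82 to 18.6. TBI rat 1 had the lowest level of Ndst4 in both classes. Itga9, an integrin alpha subunit, stood at 213, 227, 176 and 188 CPM against 15.3 to 30.5 CPM. Adamts18, a protease of the family of Adamts2, stood at 81.7, 102, 98.4 and 117 CPM against 9.34, 0, 8.26 and 9.28 CPM. Itgbl1, a secreted protein with integrin-like repeats, was abundant in both classes, at 792 to 1178 CPM in members and 581 to 673 CPM in Neurod6 and Rspo2 nuclei. Adamtsl3, an ADAMTS-like matrix protein, stood at 185 to 273 CPM against 70.8 to 101 CPM.

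**Figure D2:**
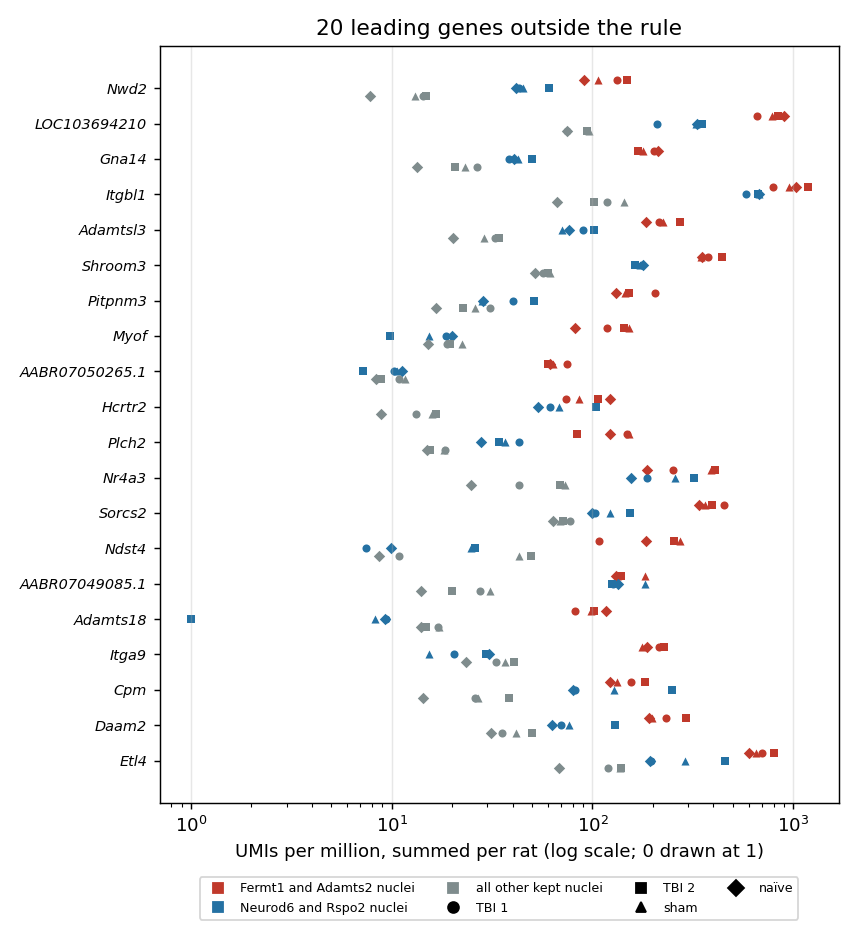
Summed CPM (log axis) of the 20 leading genes outside the rule, with 1 point per rat, in Fermt1 and Adamts2 nuclei (red), Neurod6 and Rspo2 nuclei (blue) and all other kept nuclei (grey). Red points lie to the right of grey ones for each gene, and the widest gaps between red and blue are those of Ndst4, Adamts18 and Itga9, with Adamts18 at 0 in Neurod6 and Rspo2 nuclei of TBI rat 2.

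Members differed in how much of the rule they carried. Grouped by how many of the 4 F genes were detected, 88 members had 1, 327 had 2, 338 had 3 and 208 had all 4, at medians of 3876, 3348, 3753 and 4437 UMIs. The rule and the choice of leading genes used these nuclei, so the levels across the groups are a description. Itga9 had a mean over rats of 64.0 CPM in members with 1 F gene, 198 with 2, 236 with 3 and 244 with 4. Adamts18 had means of 33.5, 64.8, 128 and 151 CPM in the same order. Prox1 was lower in members with 4 F genes than with 1 in 3 rats, at 107 and 57.0 CPM in TBI rat 2, 120 and 8.46 CPM in sham and 137 and 7.14 CPM in naïve, while in TBI rat 1 it was higher, at 46.4 and 96.0 CPM. Bcl11a, a transcription factor singled out after its values were seen, had means of 520.0, 344, 137 and 97.1 CPM, and was lower with 4 F genes than with 1 in all 4 rats. Astrocyte markers moved across the same groups, with Gfap at means of 535, 249, 91.4 and 33.7 CPM and at 1520 and 107 CPM with 1 and 4 F genes in the naïve rat, and their part in the other levels was not tested.

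Gene families of the lists were then set beside Neurod6 and Rspo2 nuclei, counting genes at 50 CPM or more in either class. Of all 4038 such genes outside the rule, 27.1% were higher in members in all 4 rats and 14.8% were lower in all 4, and the counts below are a description beside these shares. Of 8 kainate and metabotropic glutamate receptor genes, 4 were higher in members in all 4 rats and 2 were lower in all 4. Grm8, a presynaptic metabotropic receptor, showed the widest gap, at 644, 717, 616 and 670 CPM in TBI rat 1, TBI rat 2, sham and naïve against 65.4, 31.4, 59.0 and 86.9 CPM. The kainate subunit gene Grik2 was higher, at 2822 to 3629 CPM against 1955 to 2385 CPM, and Grik4 lower, at 536 to 1016 CPM against 1062 to 2048 CPM. Of 8 AMPA and NMDA receptor genes, Gria3 was higher and Grin2a lower in all 4 rats, and the other 6 were mixed.

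GABA-A receptor subunits divided in the same manner, with 3 of 9 genes higher and 3 lower in all 4 rats. Gabra3 stood at 86.1, 77.8, 114 and 117 CPM in TBI rat 1, TBI rat 2, sham and naïve against 23.6 to 41.8 CPM, and Gabra5 at 71.0 to 149 CPM against 182 to 230.2 CPM. Of 14 sodium, calcium and HCN channel genes, 2 were higher in all 4 rats, Cacna1g, a T-type calcium channel, among them, 2 were lower in all 4, Cacna1a and Scn3b, and 10 were mixed. Cacna1g stood at 235, 221, 203 and 148 CPM against 98.1 to 138 CPM. Of 12 potassium channel genes 3 were higher, Kcnh7, Kcnab1 and Kcnq3, and 2 were lower, Kcnc1 and Kcnq5. Cnr1, the CB1 cannabinoid receptor, stood at 202, 229, 209 and 169 CPM in members against 57.7 to 94.3 CPM.

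Of 8 genes in the list around kindlin-1 and integrins, 5 were higher in all 4 rats and 0 lower. Fermt1, which the rule used, and Itga9, chosen above as a leading gene, are among the 5, and Itga8, Itgb1 and Itga4 are the others. Itga8 stood at 46.5 to 105 CPM against 19.9 to 35.4 CPM, and Itgb1, the beta subunit that pairs with these alpha subunits, at 68.3 to 115 CPM against 33.1 to 48.4 CPM. Fermt2, which encodes kindlin-2, was above in 1 rat, with means of 119 CPM and 114 CPM. Of 10 sulfotransferase and sulfatase genes, Ndst4, Chst8, Hs6st1 and Chst1 were higher in all 4 rats and Chst15 lower, Chst8 by the rule and Ndst4 as a leading gene. Of 4 matrix protease genes, Adamts2, Adamts18 and Adamts17 were higher, Adamts2 by the rule and Adamts18 as a leading gene, and Adamts3 was above in 1 rat.

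**Figure D3:**
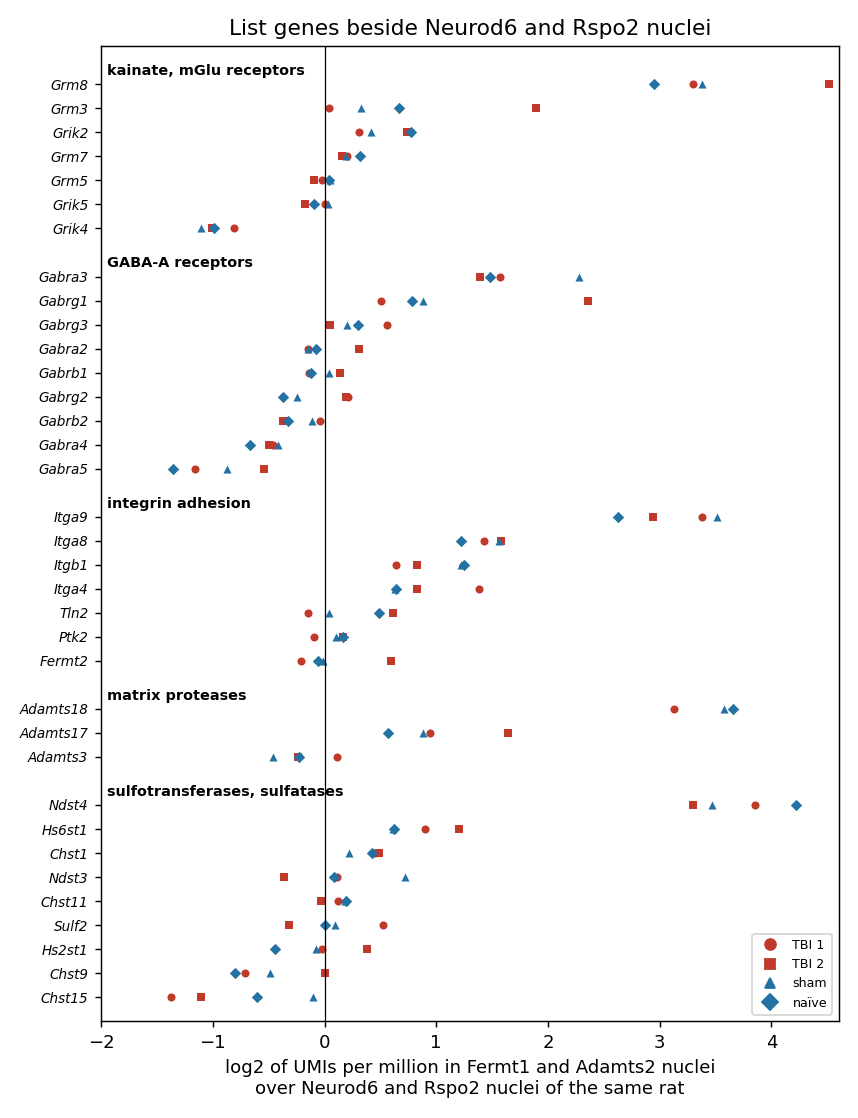
Log2 ratio of summed CPM in Fermt1 and Adamts2 nuclei to those in Neurod6 and Rspo2 nuclei of the same rat, for genes described from 5 lists at 50 CPM or more in either class, without the genes of the rule Fermt1, Adamts2 and Chst8, with 1 point per rat (red TBI, blue control) and a line at equal levels. Grm8, Itga9, Ndst4 and Adamts18 lie furthest to the right, Adamts18 without TBI rat 2 where the comparison class had 0 UMIs, and Gabra5 and Grik4 lie to the left in all 4 rats.

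Whether injury changed the number of these nuclei was asked first. Members made up 2.44% of kept nuclei in TBI rat 1 (306 nuclei, exact binomial 95% interval 2.18 to 2.73%), 1.17% in TBI rat 2 (171 nuclei, 1.005 to 1.36%), 1.48% in sham (250 nuclei, 1.30 to 1.67%) and 2.06% in naïve (234 nuclei, 1.81 to 2.34%). The TBI rats held both the highest and the lowest share, so the groups overlapped. The intervals cover counting error only. TBI exceeded control by 0.041 percentage points (means of 1.81% and 1.77%; exact two-sided permutation test over rats, p = 1, where 2 against 2 rats cannot go below 0.33). The difference was -0.594 points without TBI rat 1, 0.675 without TBI rat 2, -0.251 without the sham rat and 0.332 without the naïve rat.

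The shares also depended on which nuclei were counted. Of nuclei with 2000 UMIs or more, a count added after seeing the data that left out 4588, 10267, 9359 and 2819 shallower nuclei in TBI rat 1, TBI rat 2, sham and naïve, members made up 3.73%, 3.76%, 3.02% and 2.71% as sequenced. After each of these nuclei was thinned to 2000 UMIs the shares were 1.57%, 2.16%, 1.49% and 1.21%. Both TBI rats lay above both controls among these deeper nuclei, by 0.877 points on average before thinning and 0.519 after it (exact two-sided permutation test, p = 0.33 for each, the smallest it can give). TBI rat 2, the shallowest library, had the lowest share of all kept nuclei and the highest of the deeper ones, as the plot of shares by rat shows. Taken over Slc17a7 nuclei with few Gad UMIs, the shares were 4.50%, 2.86%, 3.54% and 3.37%.

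**Figure D4:**
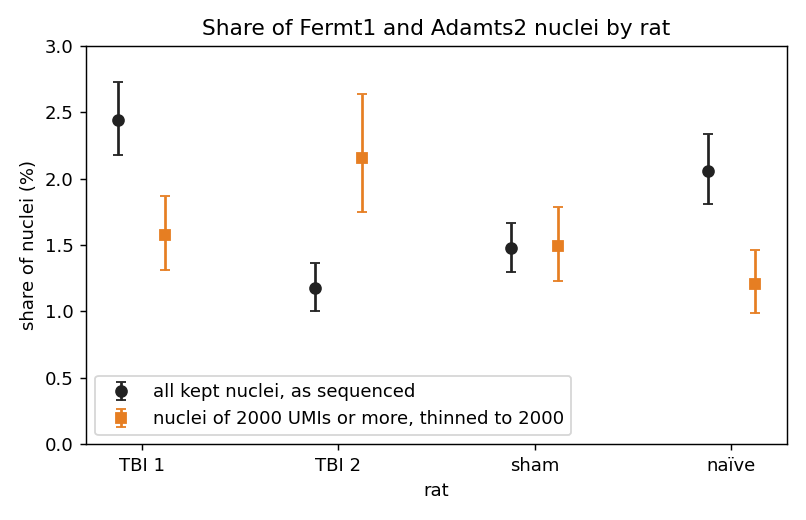
Share of nuclei (%) that met the rule in each rat, among all kept nuclei as sequenced (black circles) and among nuclei with 2000 UMIs or more after thinning to 2000 (orange squares), with exact binomial 95% intervals as bars. TBI rat 2 was lowest at 1.17% of all kept nuclei, and highest at 2.16% of the deeper nuclei after thinning.

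Whether gene levels in these nuclei differed between TBI and control was tested on UMI sums per rat. Of 9417 genes, edgeR's quasi-likelihood test called 0 at a false discovery rate (FDR) of 0.05 (0%), with a smallest adjusted p of 0.999. At an unadjusted p under 0.05 there were 228 genes (2.42%), 85 of them higher and 143 lower in TBI. DESeq2 called 0 of the same genes, with 74 at an unadjusted p under 0.05. With 1 rat left out the test compares 2 rats with a single one, assumed to vary like the others, and called 78 genes without TBI rat 1, 3 without TBI rat 2, 142 without the sham rat and 5 without the naïve rat.

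The genes of the rule are given in members as levels only, since each nucleus was chosen by them. Normalized by the trimmed mean of M values (TMM), Adamts2 stood at 436 and 419 CPM in the TBI rats and at 332 and 341 CPM in the sham and naïve rats. Trpc7 stood at 336 and 296 CPM against 264 and 279 CPM, and Fermt1 at 281 and 290 CPM against 308 and 330 CPM. Chst8 stood at 375 and 516 CPM against 524 and 255 CPM. Among all genes tested, 14.6% had both TBI rats above both controls and 15% had both below.

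The 10 such genes with the smallest unadjusted p on each side are described without a call, since none passed the adjustment (edgeR, smallest adjusted p = 0.999). Among those higher in both TBI rats, Nxf1 and Ddx39b act in the export of mRNA from the nucleus and Ppil1 is a spliceosome component. Nxf1 stood at 178 and 136 CPM in TBI rats 1 and 2 and at 84.6 and 78.9 CPM in the sham and naïve rats (log2 fold change of TBI against control, Log2FC, 0.96 ± 0.25 SE). Ddx39b stood at 267 and 273 CPM against 165 and 165 CPM (Log2FC 0.71 ± 0.21 SE). In both genes the groups did not overlap, which the rule for naming genes fixes, since it took only genes with both TBI rats on 1 side of both controls. Ngef, a guanine nucleotide exchange factor, stood at 68.1 and 52.8 CPM against 33.6 and 16.9 CPM (Log2FC 1.31 ± 0.40 SE), and Slc25a28, a mitochondrial iron carrier, at 39.3 and 57.9 CPM against 20.6 and 17.5 CPM (Log2FC 1.33 ± 0.39 SE). The other 5 were Mast3, Nphp4, Serinc2, Begain and Ptgds, with Log2FC from 0.93 to 2.35. Ptgds, a prostaglandin D synthase, rested on 25, 37, 3 and 16 UMIs in TBI rat 1, TBI rat 2, sham and naïve, and its Log2FC was 1.23 without TBI rat 2 and 3.49 without the naïve rat. It could not be tested without the members with glial UMIs, and in Neurod6 and Rspo2 nuclei its Log2FC was -1.71. The Log2FC of the other genes named on this side ran there from 0.37 for Begain to 1.44 for Ngef. In members the Log2FC of Serinc2 was 1.67, with 2.67 without the sham rat and 0.99 without the naïve rat. For Ngef it was 1.86 without the sham rat and 0.86 without the naïve rat. Without the naïve rat it was 0.59 for Mast3 and 0.69 for Nphp4, from 0.93 and 1.09, and without TBI rat 2 it was 0.60 for Begain, from 0.93.

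Tox, which encodes a nuclear protein of the HMG-box family, had the smallest unadjusted p on the other side. It stood at 35.1 and 13.6 CPM in the TBI rats and at 84.6 and 85.0 CPM in the sham and naïve rats (Log2FC -1.68 ± 0.38 SE). Of all members, 179 carried 3 or more glial UMIs. They were unevenly spread, with 94 of 306 members in TBI rat 1, 14 of 171 in TBI rat 2, 36 of 250 in sham and 35 of 234 in naïve. Without these 179 members the Log2FC of Tox was -0.98. Cpq, a carboxypeptidase, stood at 28.1 and 47.7 CPM against 62.9 and 146 CPM (Log2FC -1.55 ± 0.44 SE, and -1.60 without those members). Ptprz1, a receptor phosphatase abundant in glia, stood at 163 and 116 CPM against 231 and 468 CPM (Log2FC -1.31 ± 0.35 SE, and -0.45 without them). The naïve rat, where the astrocyte markers were highest, was also the highest of the 4 rats for each of the 10 genes on this side, Osgep, AABR07048878.1 and Lgi4 included. With the naïve rat left out the Log2FC was -0.79 for Cpq, -0.71 for Ptprz1 and -0.58 for Lgi4, and with the sham rat left out it was -2.03, -1.72 and -2.25, while Tox was at -1.68 without either and at -2.63 without TBI rat 1. Without the members with glial UMIs, the Log2FC of Sash1 was 0.14 and that of Lix1 was -0.26, while that of Hnrnpa2b1, an RNA-binding protein, was -0.88 (-0.98 with them) and that of Cntn6, an adhesion protein, -0.91 (-0.90 with them). Without the naïve rat the Log2FC of these genes was nearer 0 than with all rats. It was -0.51 for Hnrnpa2b1, -0.59 for Cntn6, -0.58 for Lix1 and -0.78 for Sash1. In Neurod6 and Rspo2 nuclei the Log2FC of the genes on this side ran from -0.26 for Sash1 to -1.17 for Cpq. Osgep was not tested there.

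**Figure D5:**
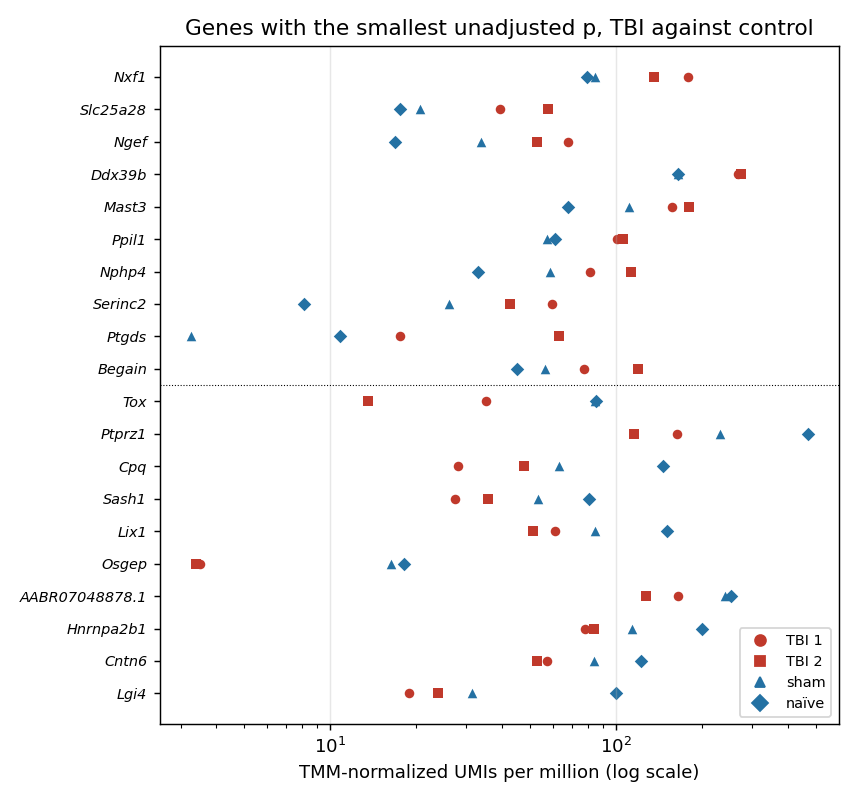
TMM-normalized CPM (log axis) in Fermt1 and Adamts2 nuclei of each rat (red TBI, blue control) for the 10 genes with the smallest unadjusted p higher in TBI (above the dotted line) and the 10 lower in TBI (below it). The groups do not overlap in any of the 20, which the choice of genes fixes, and the naïve rat lies far from the sham rat for Ptprz1, Cpq and Lgi4.

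None of the gene lists held a called gene. The 10 endoplasmic reticulum stress genes tested had the lowest median among lists of 10 or more, at a Log2FC of -0.78 beside -0.01 over all genes, with 1 of 10 above 0, beside 48.7% of all genes tested, and 1 at an unadjusted p under 0.05, beside 2.42%. Without the members with glial UMIs 7 of the list could be tested, with a median of -1.04 and 0 at an unadjusted p under 0.05. Over all members the gene at that p was Calr, the chaperone calreticulin, at 81.4 and 40.9 CPM in the TBI rats and 71.6 and 189 CPM in the sham and naïve rats. The list summed to 541, 273, 377 and 931 CPM in members of TBI rat 1, TBI rat 2, sham and naïve and to 617, 463, 450.4 and 1014 CPM in all other nuclei, so the naïve rat was high in both and the groups overlapped. The 4 astrocyte markers tested had a median Log2FC of -1.53, and the 2 that could be tested without the members with glial UMIs had a median of -0.29.

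Of 15 voltage-gated potassium channel genes 12 had a Log2FC above 0, with a median Log2FC of 0.26 (0.18 without the members with glial UMIs) and 0 at an unadjusted p under 0.05. The list summed to 6073, 7102, 6091 and 5347 CPM in members of TBI rat 1, TBI rat 2, sham and naïve and to 5106, 5214, 5032 and 4248 CPM in all other nuclei, lowest in the naïve rat in both. Of 17 sodium, calcium and HCN channel genes 14 had a Log2FC above 0, with a median of 0.21 (0.083 without those members), and Cacna1h, a T-type calcium channel, was the 1 with an unadjusted p under 0.05, at 104 and 123 CPM against 79.2 and 51.3 CPM. That list summed to 7335, 7643, 7502 and 5764 CPM in members and to 6277, 6325, 6259 and 5055 CPM in all other nuclei, again lowest in the naïve rat, and in members the TBI rats did not both lie above the sham rat. The medians were 0.09 for 9 AMPA and NMDA receptor genes, -0.12 for 11 GABA-A subunit genes and 0.06 for 33 axon guidance genes. Among 5 immediate-early genes, which mark recent neuronal activity, 3 were higher and 2 lower, with a median of 0.13. Of 17 complement, interferon and MHC class I genes 15 were under 10 CPM on average in members, and B2m, the light chain of MHC class I, had a Log2FC of -0.16 (0.40 without the members with glial UMIs). Of 5 granule neuron markers tested, 3 had a Log2FC above 0, with a median of 0.04, and 1 had an unadjusted p under 0.05. That gene was Prox1, at 88.4 and 92.0 CPM against 58.6 and 54.6 CPM (Log2FC 0.67 ± 0.25 SE). Trpc6, Stxbp6 and C1ql2 of this list had Log2FC of 0.04, -0.03 and -0.04. Plk5 had the largest, 1.30 ± 0.82 SE, with overlapping groups. It stood at 33.0 and 5.11 CPM in the TBI rats and at 11.9 and 5.39 CPM in the sham and naïve rats. Without the members with glial UMIs the Log2FC of Prox1 was 1.02, with 0 of the 4 markers then tested at an unadjusted p under 0.05 and a median of 0.56.

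Whether the TBI effect differed between Fermt1 and Adamts2 nuclei and Neurod6 and Rspo2 nuclei was tested as an interaction, with the rat as a block. Of 9930 genes, edgeR called 0 (0%) at an FDR of 0.05, with 253 (2.55%) at an unadjusted p under 0.05, and DESeq2 called 0, with 8. Without TBI rat 1 it called 40 genes, without TBI rat 2 it called 9 and without the sham rat 2. Ptprz1 had the smallest unadjusted p, with a difference in Log2FC of -0.81 ± 0.20 SE (members minus Neurod6 and Rspo2 nuclei; edgeR, adjusted p = 1). Without nuclei with 3 or more glial UMIs this difference was -0.25. Etv5, an ETS-family transcription factor, had a difference of 1.04 ± 0.29 SE, at 87.0, 147, 105 and 52.6 CPM in members of TBI rat 1, TBI rat 2, sham and naïve and at 33.1, 66.8, 75.2 and 54.2 CPM in Neurod6 and Rspo2 nuclei. Adamts12, another ADAMTS protease, had the widest difference of the 10 genes named for the interaction, 3.49 ± 0.93 SE, at 8.38 to 21.4 CPM in members and 0.997 to 25.7 CPM in the other class, lowest there in TBI rat 2, and it was too low to be tested in that class alone. With 1 rat left out this difference ran from 2.47 without TBI rat 2 to 4.93 without TBI rat 1. The remaining genes were St18, AABR07044049.1 and Mipep above 0 and Cst3, Mt3, Fdft1 and Rorb below it. In Neurod6 and Rspo2 nuclei alone edgeR called 0 of 8985 genes, with 156 (1.74%) at an unadjusted p under 0.05.

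The genes of the rule were last read in the bulk libraries, where all cells of the dentate gyrus are mixed and fewer cells of a type cannot be told apart from less RNA per cell. Of 14166 genes, edgeR called 0 (0%) between TBI and sham, with 1360 (9.6%) at an unadjusted p under 0.05, while DESeq2 called 349 of 14154 genes. None of the 11 genes of the rule was called by either. Adamts2 stood at 3.08, 4.74 and 5.60 CPM in the 3 sham rats and at 7.83, 3.70 and 18.3 CPM in the 3 TBI rats (Log2FC 1.15 ± 0.54 SE; edgeR, adjusted p = 0.585). Its groups overlapped, and without TBI replicate 3 its Log2FC was 0.36. Fermt1 stood at 3.49 ± 1.49 CPM in sham and 3.37 ± 1.22 CPM in TBI (SD, n = 3 each), Trpc7 at 3.60 ± 1.19 and 3.65 ± 0.419 CPM, and Chst8 at 22.9 ± 2.76 and 23.6 ± 1.92 CPM, each with overlapping groups.

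Of the 20 leading genes, 17 were in the bulk table, 4 higher and 13 lower in TBI, with a median Log2FC of -0.21, beside -0.0029 over all genes, and 0 at an unadjusted p under 0.05. In 1 of them, Hcrtr2, the groups did not overlap, beside 15% of all genes, at 2.17, 2.50 and 2.12 CPM in sham and 1.65, 1.92 and 1.04 CPM in TBI (Log2FC -0.56 ± 0.33 SE; edgeR, adjusted p = 0.674). Myof, a ferlin of membrane repair, stood at 5.90, 9.29 and 7.95 CPM in sham and 7.75, 11.5 and 21.1 CPM in TBI (Log2FC 0.80 ± 0.36 SE; edgeR, adjusted p = 0.557).

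Of the 20 genes named for TBI in nuclei, 19 were in the bulk table, 14 higher and 5 lower in TBI. Their median Log2FC was 0.08, beside -0.0029 over all genes. The 5 were Mast3, Nphp4 and Begain, named as higher in TBI in the nuclei, and Sash1 and Lix1, named as lower. All other genes of the 19 that were named as lower in the nuclei had a bulk Log2FC above 0. Of the 19, 4 had an unadjusted p under 0.05, beside 9.6% of all genes, with 0 called by edgeR. The groups did not overlap in 3 of the 19, beside 15% of all genes. These were Cpq, Osgep and Lgi4, lower in TBI in the nuclei and higher in bulk TBI. Cpq stood at 28.3, 25.9 and 23.8 CPM in sham and 30.7, 31.9 and 41.7 CPM in TBI (Log2FC 0.42 ± 0.15 SE; edgeR, adjusted p = 0.389). The Log2FC was 0.40 ± 0.12 SE for Osgep and 0.48 ± 0.12 SE for Lgi4 (edgeR, adjusted p = 0.326 and 0.246). Ptgds was higher in TBI in both, at 94.3, 277 and 119 CPM in sham and 613, 160 and 2368 CPM in TBI, with overlapping groups (Log2FC 2.68 ± 0.92 SE; edgeR, adjusted p = 0.377).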

How the data were processed

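The UMI counts of nuclei were made by the authors with Cell Ranger on Rnor_6.0, intronic reads included, 1 matrix for each rat. Entries stored as 0 were read as 0, and doublets were kept. Nuclei passing the limits were summed per rat and class, and the sums were tested in edgeR 4.0.16 (glmQLFit, TMM, filterByExpr, Benjamini-Hochberg), with DESeq2 1.42.0 and the alternatives named below. Members are not replicates, so p-values measure the spread between rats. For comparison, the filters stated in the paper left 55124 nuclei.

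For bulk RNA-seq, the authors ran kallisto (version not given in the sources used here) and deposited estimated counts per transcript, 25121893 to 44649404 in total per library, and log2 CPM of 14166 genes, of which 13778 took a symbol from a RefSeq table (GRCr8, names only). From these deposited log2 CPM the gene counts were recovered, rounded and tested in edgeR. They summed to 97.81 to 98.47% of the estimated counts. No other column of samples was found.

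The members, gene lists and tests were chosen with earlier results of these data known. Named genes were those of the rule, the 20 leading genes, the 10 smallest p on each side for TBI among genes with both TBI rats on 1 side of both controls, 5 on each side for the interaction, and list genes where described. Of the list genes, 20 were not in the matrices, and results for a few others are not reported here. Scripts were tested on simulated data.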

Additional observations from a re-analysis of the deposited data

How the results depend on the processing

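The TBI test in members called 0 genes under DESeq2, DESeq2's size factors, a minimum of 1000 UMIs, the filters stated in the paper, F of 4 or 5 or more, no Gad UMI, no glial UMIs and, chosen after seeing the data, at least 2 F genes detected. It called 42 with no filter on low counts and 3 to 142 with 1 rat left out. The interaction called 1 gene with no filter on low counts and 0 to 40 with 1 rat left out, and 0 otherwise, also without nuclei with glial UMIs (chosen after seeing the data). The difference in share was -0.122 percentage points without members with glial UMIs, -0.594 to 0.675 with 1 rat left out, and above 0 under the other alternatives. In bulk, 0 genes of the rule were called under every alternative run, while all genes gave 349 calls under DESeq2, 61 with the replicate number as a block, 0 to 1 with 1 library left out and 0 otherwise. Same-numbered bulk libraries deviated together at r = 0.377, 0.213 and -0.030, and 4 of 6 libraries correlated best with their own number. These values do not settle whether the numbers mark pairs. The main test did not take them as pairs, and the block gave 0 calls among the genes of the rule. No paired analysis was possible for nuclei because the sham and naïve groups hold 1 rat each.

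Of 20 single genes followed in nuclei for TBI, 1 changed sign, Sash1, with a Log2FC of 0.14 without members with glial UMIs. In bulk, Fermt1 had a Log2FC of 0.037 with limma on the deposited log2 CPM and -0.36 to 0.18 with 1 library left out, Trpc7 had -0.010 with DESeq2, -0.0086 with DESeq2's size factors and -0.21 to 0.24 with 1 left out, and Chst8 ran from -0.023 to 0.14. The cause of these changes was not tested. Each group of nuclei held 2 rats, with 171 to 306 members a rat.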

Other observations

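Axon guidance genes, described above for TBI only, were also set beside Neurod6 and Rspo2 nuclei, and the values are a description because the rule separated the classes. Of 29 genes at 50 CPM or more in either class, 8 were higher in members in all 4 rats and 14 were lower in all 4, beside 27.1% and 14.8% of all genes at that level outside the rule. Slit2, a secreted repellent that binds Robo receptors, stood at 1701, 1948, 1581 and 1663 CPM in members of TBI rat 1, TBI rat 2, sham and naïve, against 770 to 1162 CPM. Sema3e, a secreted semaphorin, stood at 373 to 491 CPM against 187 to 256 CPM. The neuropilins, co-receptors for semaphorins, ran in opposite directions. Nrp2 stood at 510 to 688 CPM in members against 325 to 400 CPM, and Nrp1 at 579 to 800 CPM against 935 to 1339 CPM. Epha8 and Robo3, both guidance receptors, were low in members, at 8.46 to 36.5 CPM against 60.2 to 98.7 CPM for Epha8 and at 15.9 to 41.2 CPM against 49.5 to 93.3 CPM for Robo3.

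Of 5 TRPC channel genes at that level, Trpc7 and Trpc4 were higher in members in all 4 rats, the first of them by the rule, and Trpc1 was lower in all 4. Trpc4 stood at 210 to 329 CPM against 143 to 243 CPM. Trpc6, a channel of granule neurons, had means of 68.8 CPM in members and 98.0 CPM in Neurod6 and Rspo2 nuclei, beside 267 CPM in all other kept nuclei. Among neuromodulator receptors, Htr4, a serotonin receptor, was lower in members in all 4 rats, at 116 to 192 CPM against 208 to 307 CPM, and Adra1a, an adrenergic receptor, was higher, at 78.7 to 118 CPM against 49.3 to 66.3 CPM.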
